A study of Mus musculus with 4 samples.

Results

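The peaks described here are those that MACS 1.4, an early program for finding regions rich in sequenced fragments, listed in embryonic ganglia and that its successor MACS2 did not list. They came from chromatin immunoprecipitation followed by sequencing (ChIP-seq) of dorsal root ganglia of C57BL/6 mice at embryonic day 16 (E16), with an antibody labelled as directed against the MEIS1, MEIS2 and MEIS3 proteins. A MACS 1.4 peak was a member where it shared not even 1 bp with an E16 MACS2 peak, which held for 896 of the 1278 peaks of the MACS 1.4 list. The other 382 overlapped a MACS2 peak. Members were thus chosen by measured values, namely the peak calls of both programs on the same E16 libraries, and their scores, widths and tag numbers are given as a description. Each list compared 1 immunoprecipitated library with 1 E16 input library of DNA that was not immunoprecipitated, and adult ganglia of the same strain, with 1 immunoprecipitated and 1 input library, served only to see which sites were listed again. There was no replicate at either age, so no difference was tested and all intervals below cover counting error only. Labels call the cells sensory neurons, but the sources used here name no sorting step and no number of animals, and whole ganglia contain other cell types as well, glia among them. Gene expression was not measured, so the cell type could not be checked against markers.

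The MEIS family belongs to the TALE class of homeodomain transcription factors. They bind DNA together with PBX and HOX proteins and recognise a short sequence with the core TGACAG. In dorsal root ganglia, which hold the cell bodies of touch, pain and temperature neurons, Meis2 has been linked to the differentiation of touch neurons. Transcription factors bind near the starts of genes as well as at distant enhancers inside introns or between genes, so the place of a peak alone does not name the gene it acts on.

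Of the 858 members on chromosomes that the promoter table covers, 11 (1.28%, exact 95% interval 0.642 to 2.28) overlapped a promoter window, the 250 bp before to 50 bp after a transcription start. Over all E16 MACS 1.4 peaks of those chromosomes the share was 1.06%, and 2 of 374 peaks with a MACS2 overlap (0.535%, 0.0648 to 1.92) lay on such a window. The 6 of these members with the highest scores lay at the starts of Ssr4, Gmpr, Tdrd1, Ceacam20, Slc32a1 and Plbd1. The lines below give the bases before each start that the peak covered, read on the strand of the gene from RefSeq sequence of GRCm38.p6 (the build of the mm10 peak coordinates) at the start that the promoter table gives, with the core TGACAG or its reverse complement CTGTCA in capitals. They are shown because they are the members' own sequence at gene starts.
Ssr4, chrX:73786773-73787022, plus strand: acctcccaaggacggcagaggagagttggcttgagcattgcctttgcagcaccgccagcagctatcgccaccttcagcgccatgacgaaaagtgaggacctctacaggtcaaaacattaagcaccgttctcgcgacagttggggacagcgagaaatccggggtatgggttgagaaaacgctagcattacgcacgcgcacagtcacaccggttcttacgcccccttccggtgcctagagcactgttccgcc
Gmpr, chr13:45507307-45507443, plus strand: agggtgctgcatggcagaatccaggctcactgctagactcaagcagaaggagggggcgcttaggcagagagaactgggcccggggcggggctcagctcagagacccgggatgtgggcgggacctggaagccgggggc
Tdrd1, chr19:56830462-56830711, plus strand: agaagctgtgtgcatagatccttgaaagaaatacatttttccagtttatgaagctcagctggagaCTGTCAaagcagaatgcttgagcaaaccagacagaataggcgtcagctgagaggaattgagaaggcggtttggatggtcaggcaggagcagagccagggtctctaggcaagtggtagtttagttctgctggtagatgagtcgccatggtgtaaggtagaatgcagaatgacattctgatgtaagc
Ceacam20, chr7:19965233-19965411, plus strand: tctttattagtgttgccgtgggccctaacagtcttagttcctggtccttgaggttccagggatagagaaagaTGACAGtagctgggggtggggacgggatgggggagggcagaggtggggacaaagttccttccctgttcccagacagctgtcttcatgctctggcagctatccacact
Slc32a1, chr2:158610697-158610757, plus strand: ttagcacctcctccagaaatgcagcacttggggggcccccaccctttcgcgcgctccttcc
Plbd1, chr6:136661894-136661962, minus strand: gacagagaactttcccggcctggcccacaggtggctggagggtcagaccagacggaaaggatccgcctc

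The core stood before the start of Tdrd1, which encodes a Tudor domain protein of the germline, and of Ceacam20, a cell adhesion gene of the CEA family. It was absent from the printed bases of the other four. Those genes were Ssr4, a subunit of the translocon-associated protein complex, Gmpr, which encodes guanosine monophosphate reductase, Slc32a1, the vesicular transporter of GABA and glycine, and Plbd1, a phospholipase B domain gene. Counting every window that a member overlapped, 3 of 14 held TGACAG on either strand within their 300 bases, the third being that of Ppt1, a lysosomal thioesterase gene. Over all 32851 promoter windows of the table the share was 19.2%. A match of 6 letters is a description of the sequence and not a binding site. The sequence of the peaks away from gene starts was not analysed here.

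Members were weak peaks. The score of a MACS 1.4 peak, the authors' deposited value, is 10 times the −log10 of the p-value, so that a higher score is a less likely pile of reads. It ran from 50.4 to 171.6 in the members with a median of 64.7 (quartiles 61.8 and 70.7), and 657 of 896 stayed under 70. Peaks with a MACS2 overlap had a median of 78.4 (quartiles 70.5 and 96.5) and reached 3133. A score of at least 100 was held by 18 members (2.01%) and by 76 of the other peaks (19.9%). These differences follow from the choice of members and carry no test. The rule had no borderline cases at its limit of 1 bp. Every excluded peak shared at least 175 bp with a MACS2 peak, among them peaks at Rin2 (score 72.32) and Grik3 (86.55). The nearest member lay 432 bp from one (chr9:3028638-3028953, score 64.94), beside a run of other peaks. Of the 896 members, 5 lay within 10000 bp of a MACS2 peak.

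By the tag numbers inferred from the scores, most members rested on 7 sequenced reads. The scores fell on a few smooth lines when set against peak width, and each line could be matched to a whole number of reads, called tags by the program, over a genome-wide background of 1.32 tags per kb. This gave a tag number for 650 members, of which 479 had 7 tags, 114 had 8, 23 had 9, 19 had 10 to 14 and 15 had 6. A count of 7 has an exact Poisson 95% interval of 2.81 to 14.4. That interval makes no allowance for peaks being listed because their counts were high. The other 246 members lay off the lines, which were drawn for the genome-wide background only, and had a median score of 62.7. Peaks with a MACS2 overlap and a tag number (266 of 382) had 7 tags in 114 cases and a median of 8.

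With 7 or 8 tags, members were wider than the peaks that MACS2 also listed, and with 10 or more they were narrower. The 479 members with 7 tags had a median width of 491 bp and a median score of 63.6, where the background predicts 0.648 tags. The 114 peaks with 7 tags and a MACS2 overlap had a median width of 392 bp and a median score of 70.96. With 8 tags the median widths were 514 and 397 bp. With 10 or more tags they were 251 bp for 19 members and 404.5 bp for 34 other peaks. Widths came from the same peak calls as the choice of members, so the shares below describe that choice and were not tested. Of the 674 MACS 1.4 peaks that were over 440 and up to 540 bp wide, 621 were members (92.1%, exact 95% interval 89.8 to 94.1), against 28 of 96 (29.2%, 20.3 to 39.3) of those over 310 and up to 360 bp. The share was 33 of 78 (42.3%, 31.2 to 54.0) up to 310 bp, 154 of 304 (50.7%, 44.9 to 56.4) over 360 and up to 440 bp, and 60 of 126 (47.6%, 38.7 to 56.7) over 540 bp, so it did not rise steadily with width.

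**Figure D1:**
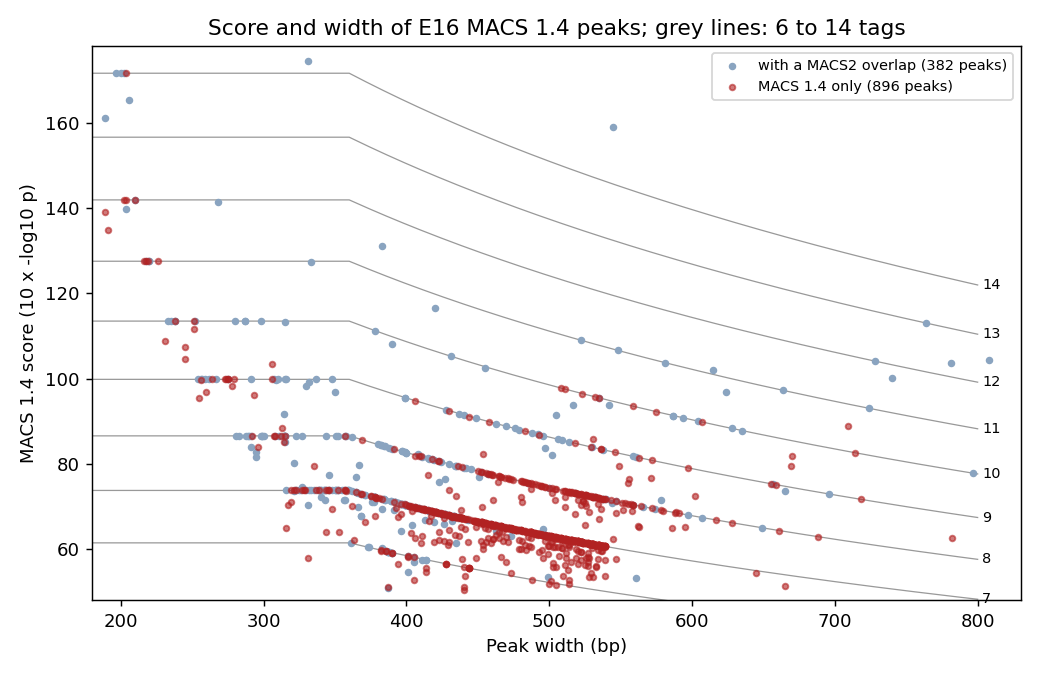
Peak width in bp (x axis) and MACS 1.4 score (y axis) of E16 peaks, with each point 1 peak and each grey line the score of a fixed number of tags, 6 to 14, at the genome-wide background. The members crowd on the line of 7 tags between 440 and 540 bp, and a small set of narrow members under 310 bp carries the highest scores. The axes leave out 10 members and 39 other peaks that were wider or scored higher.

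A small number of members were narrow and had high scores. There were 33 members of at most 310 bp, with scores of 83.9 to 171.6 (median 103), and they included 17 of the 18 members with a score of at least 100. Of these 33, 17 had 9 or more tags, 3 had 8 and 13 had no tag number. The narrowest peak of the whole list measured 189 bp. Peaks of at most 310 bp made up 3.68% of the members but 45 of 382 peaks with a MACS2 overlap (11.8%), with scores of 81.6 to 171.6 in the latter. Of the 76 peaks with a MACS2 overlap and a score of at least 100, only 20 were that narrow.

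The member of highest score lay 1.21 kb from Pspc1, which encodes a paraspeckle protein (chr14:56721131-56721334, score 171.6, 14 tags in 204 bp). Scores of 141.89, each with 12 tags in 202 to 210 bp, were held by members 15.1 kb from Sp4, a zinc-finger transcription factor gene, 309.98 kb from Shox2, a homeobox gene, and 15.5 kb from the vomeronasal receptor gene Vmn1r72. The next lay inside Rbx1, the RING subunit of cullin ubiquitin ligases (chr15:81468521-81468709, score 138.97), and 21.5 kb from Gm30534 (134.82). Scores of 127.51, with 11 tags each, were found inside Wdfy2, a gene of an endosomal protein, inside Aknad1, 6.79 kb from Pebp1, an inhibitor of Raf kinase, and 89.1 kb from Tnks, which encodes tankyrase. The last of the 12 highest lay inside Sfi1, a centrin-binding protein gene (115.06), and inside Ttc7b, a partner of a phosphatidylinositol kinase (113.47, 10 tags). Of these 12, the member inside Sfi1 was 5593 bp wide and the other 11 were 189 to 251 bp wide.

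Inside protein-coding genes, the highest scores after Rbx1, Wdfy2, Aknad1, Sfi1 and Ttc7b belonged to members in Macrod2, a hydrolase that removes ADP-ribose (113.47), and Stag1, a cohesin subunit (104.66). Rims1, a scaffold of the presynaptic active zone, the organic anion transporter gene Slco6d1 and Bcas3 followed with 99.81 and 9 tags each. Of the 10 highest in gene bodies, the member inside Rbx1 was the only one that overlapped an adult peak.

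Members lay inside genes and outside them in nearly equal numbers. The middle of 480 members (53.6%, exact 95% interval 50.2 to 56.9) lay inside an annotated gene, and of all E16 MACS 1.4 peaks 53.3% did. Genes covered 49.3% of the sequence from the first to the last gene of the chromosomes, weighted by the members of each. Protein-coding genes held 411 members (45.9%, 42.6 to 49.2), where all peaks gave 45.8% and the sequence 41.0%. Peaks with a MACS2 overlap gave 52.6% (47.5 to 57.7) for annotated genes and 45.5% (40.5 to 50.7) for protein-coding genes, intervals that span those of the members. The middles of 70 members lay inside a long non-coding RNA gene and those of 11 inside a pseudogene. A member inside genes of different kinds was counted for each kind. The matching shares over all peaks were not worked out, so these are plain counts. More than 100000 bp from any gene lay 51 members (5.69%, 4.27 to 7.42), against 5.95% of all peaks and 7.58% of the sequence. Stretches that short reads cannot reach were not taken out of the sequence shares, and their part was not tested.

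Within protein-coding genes the members were spread along the whole body. For the 312 members inside a gene of known strand, the median position was 47.7% of the way from the 5′ to the 3′ boundary. The first 20% of the gene held 70 of them (22.4%) and the last 20% held 66 (21.2%). Peaks with a MACS2 overlap had a median position of 48.7% (141 peaks). Members of every score class lay inside genes at similar shares, from 52.5% (44.5 to 60.4) of those with a score of 70 to under 80 to 58.2% (46.6 to 69.2) of those at 80 or more.

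At gene boundaries, either end, members were somewhat more frequent than the sequence there. Within 1000 bp of a boundary of any annotated gene lay 83 members (9.26%, exact 95% interval 7.45 to 11.4), against 8.69% of all peaks, 28 of 382 peaks with a MACS2 overlap (7.33%, 4.93 to 10.4) and 6.32% of the sequence. For protein-coding genes these were 48 members (5.36%, 3.98 to 7.04), 4.69% of all peaks, 12 peaks with a MACS2 overlap (3.14%, 1.63 to 5.42) and 3.10% of the sequence. The difference between members and the other peaks was not tested. Within 500 bp of a boundary of any gene lay 43 members (4.80%, 3.49 to 6.41), against 4.54% of all peaks and 3.40% of the sequence. Within 2000 bp lay 145 (16.2%, 13.8 to 18.8), against 14.7% of all peaks, 43 of 382 peaks with a MACS2 overlap (11.3%, 8.27 to 14.9) and 11.5% of the sequence. Within 1000 bp of a transcription start of the promoter table lay 26 of 858 members (3.03%, 1.99 to 4.41), against 3.25% of all peaks. Of the 42 boundary members at a protein-coding gene of known strand, 17 lay at the 5′ and 25 at the 3′ boundary. Of all 48, 24 had the middle inside the gene and 24 outside. Sides were not counted for peaks with a MACS2 overlap, and no preference for a side was tested. The share at protein-coding boundaries had no order over the score, with 14 of 160 members (8.75%) at 70 to under 80 but 4 of 185 (2.16%) at 65 to under 70 and 3 of 79 at 80 or more.

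**Figure D2:**
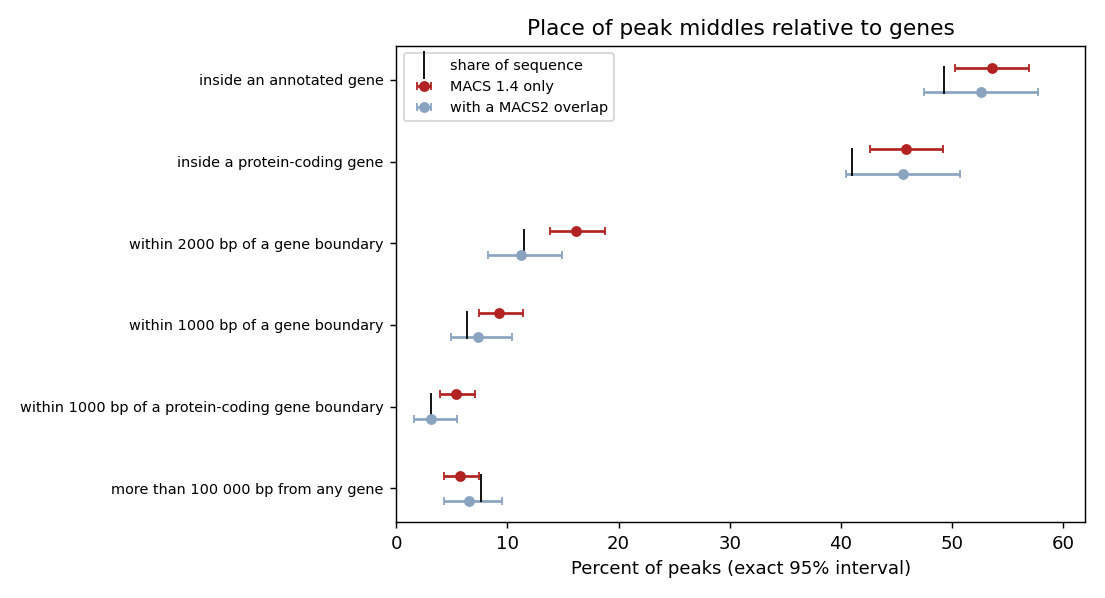
Percent of peaks (x axis, with exact 95% intervals) whose middle fell in each place relative to genes, for 896 members (red) and 382 peaks with a MACS2 overlap (blue), with black ticks for the share of sequence. The members' points lie right of the tick for all places but the one far from genes, and the intervals of both sets overlap, which is no test of a difference.

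The members at the boundaries of protein-coding genes were weak, with a median score of 63.6 (range 51.9 to 99.6), and 21 of the 48 had 7 tags. The highest lay 15 bp inside a boundary of Arhgap12, which encodes a GTPase-activating protein (score 99.61). It was followed by Gm32584 (88.82, 445 bp inside the 5′ end) and Nynrin, a gene with a retroviral integrase domain (88.45, 591 bp before the 5′ end). Those at Cox4i1, a subunit of cytochrome c oxidase (79.58), and Cstdc4, a cystatin family gene (79.20), came next, and the one at Cox4i1 was exactly at the limit of 1000 bp. At the 3′ ends lay members beside Cdc37l1, which encodes an HSP90 co-chaperone (77.09), Hivep2, a zinc-finger transcription factor gene (76.70), Sin3b, a corepressor scaffold of histone deacetylases (75.32), and Pdzd9 (74.80). The member at Cdc37l1 had its middle inside another gene, Ak3, and the one at Pdzd9 inside Uqcrc2. The member between Ssr4 and Idh3g, a subunit of mitochondrial isocitrate dehydrogenase, covered both starts (75.41, chromosome X, 73786704 to 73787258).

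Lower boundary scores were found at the bitter taste receptor gene Tas2r139 (73.42) and Proca1 (73.18). Atp2b4, a plasma membrane calcium pump gene (73.00), Prr5, a subunit of the mTORC2 complex (72.44), and Shisa4 (72.10) followed. Chd4, the helicase of the NuRD chromatin remodelling complex, had a member 42 bp beyond its 3′ end (chr6:125130364-125130902, score 71.69, 8 tags). Wee2, an oocyte kinase gene (70.37), 4931406C07Rik (69.97), the nucleolar protein gene Nol11 (68.63, middle inside Gm39425) and Gmpr (67.12) completed the 20 highest. Among these 20, the member at Nynrin was 313 bp wide and the one at Arhgap12 256 bp, while the others measured 404 to 709 bp.

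The longer a protein-coding gene, the more often it held a member. A member lay in the body of 396 of 21770 protein-coding genes (1.82%), whose median length was 108 kb against 17.2 kb for all protein-coding genes. Of genes over 300 kb, 105 of 556 had one (18.9%, exact 95% interval 15.7 to 22.4), against 16 of 7856 genes of up to 10 kb (0.204%, 0.116 to 0.331). Members per Mb of gene body varied much less, with 0.495 up to 10 kb (16 members) and 0.395 over 10 and up to 30 kb. They numbered 0.486 over 30 and up to 100 kb, 0.340 over 100 and up to 300 kb and 0.358 over 300 kb. The classes over 100 kb had the lowest values, and this difference was not tested.

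**Figure D3:**
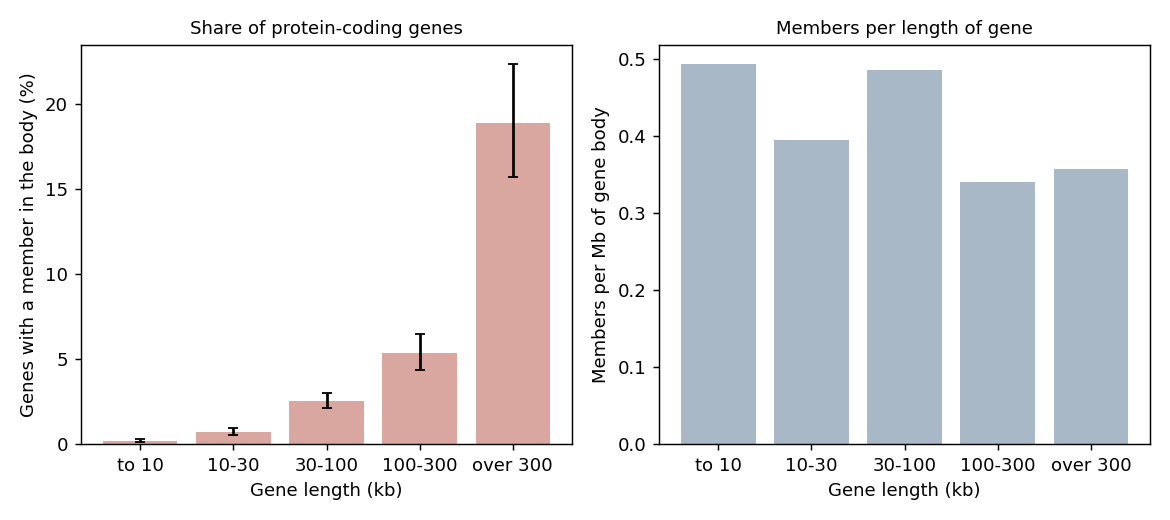
Left, the percent of protein-coding genes with a member in the body (y axis, exact 95% intervals) by gene length in kb (x axis). Right, members per Mb of gene body in the same classes. The share of genes rises from 0.204% to 18.9% with length, while the density stays between 0.340 and 0.495 members per Mb.

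More than 1 member lay in the body of 16 protein-coding genes, 14 with 2 and 2 with 3. The 3 members of Rims1 had scores of 68.39, 61.32 and 99.81 and lay within 83.7 kb of each other. The 3 of Sfi1 (115.06, 92.92 and 62.79) were 5593, 5265 and 2401 bp wide. With another member 4399 bp outside the gene, on its lower-coordinate side (83.17, inside Pisd-ps1), they formed a row at chr11:3126940-3151748. These 3 and 1 of 2353 bp on chromosome 18 (98.70) were the members wider than 2000 bp. How reads that match several places were handled is not named by the sources used here.

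The genes with 2 members and the highest scores were Zswim8, a ubiquitin ligase adaptor (95.71 and 60.64, middles 2.33 kb apart), and Crocc, the rootletin gene of the ciliary rootlet (93.49 and 67.63). Pkhd1, whose product fibrocystin sits on primary cilia, had 81.01 and 62.54. Tmem267 (78.34 and 62.70) had members only 1.65 kb apart, 1254 and 782 bp wide. Trps1, a GATA-type repressor gene (73.75 and 67.41), Atp2b4 (73.00 and 63.41), Slco2a1, the prostaglandin transporter gene (72.17 and 61.36), and Edil3, an extracellular matrix gene (70.63 and 57.64), followed. Clusters were rare. In all, 21 members (2.34%, exact 95% interval 1.46 to 3.56) had another E16 MACS 1.4 peak within 10000 bp, where all peaks gave 3.68% and peaks with a MACS2 overlap 6.81% (4.49 to 9.81).

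Genes of synapses and of axon guidance had the most members among the lists of genes described here. Of 407 genes in 12 lists, 32 (7.86%) had a member in the body or within 10000 bp, against 2.63% of all protein-coding genes. The synaptic adhesion and receptor genes numbered 12 of 54, the axon guidance genes 9 of 54 and the voltage-gated channel genes 4 of 38. For the 382 peaks with a MACS2 overlap, the share of all protein-coding genes in that range was not worked out. They lay at 20 of the 407 genes, among them 6 synaptic, 6 axon guidance and 4 channel genes. These lists also hold the longest genes, with median lengths of 412, 201 and 290 kb. Of the list genes over 300 kb, 24 of 87 had a member in the body (27.6%), beside 18.9% of all protein-coding genes of that length, and of those up to 300 kb 6 of 320, beside 291 of 21214 of all protein-coding genes up to that length. Over 300 kb, the synaptic list had 10 of 33, the axon guidance list 8 of 20 and the channel list 4 of 19. With so few genes, and with no test, nothing particular to these lists is claimed.

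Among synaptic genes the highest scores were those of Rims1 (99.81, chr1:22715807-22716112) and Lrrc4c, a netrin-G ligand (96.84, chr2:96607412-96607671). The AMPA receptor subunit gene Gria2 had 72.48 and Lrrtm4, a leucine-rich postsynaptic adhesion gene, 72.24. Nrxn3, Gria4, Cadm2, Grin1, Grm8, Grin2b and Grm7 had members with scores of 67.04 to 68.93 and 7 tags each. The member counted for Grin1 lay 9620 bp outside the gene, while the other synaptic members lay inside their genes.

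Among guidance genes, those of ligands and of receptors both had members. The semaphorin genes Sema3a (73.14), Sema5a (69.73) and Sema6d (60.69) had members, as had the semaphorin receptor gene Plxna4 (69.54). The SLIT genes, which encode repellent ligands of ROBO receptors, had 1 each, Slit3 (66.67), Slit1 (64.36) and Slit2 (62.54), with 7 tags at each. Slit1 and Slit2 were named after their values were seen. In that order the 3 genes are 587, 149 and 326 kb long. Of all protein-coding genes, 5.35% of those over 100 and up to 300 kb and 18.9% of those over 300 kb held a member. Adhesion genes were Cntn4, with 2 members (62.85 and 61.97), and Dscam (55.50, 6 tags). These 9 genes all had the member inside the body.

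Channel genes were led by Cacna2d3, an auxiliary calcium channel subunit (92.45, 9 tags). Cacna1e, the R-type calcium channel gene (69.09 and 57.34), Cacna1c, an L-type channel gene (62.60), and the potassium channel gene Kcnh8 (60.18) had lower scores. Of sensory neuron transcription factor genes, 3 of 32 had a member, and all scores were near or below the members' median: Bcl11b (63.57), Zeb2 (62.57) and Runx1, a determinant of non-peptidergic nociceptors (55.99). Nociceptor, thermoreceptor and itch genes numbered 2 of 36, with Th, the tyrosine hydroxylase gene of C-fibre touch neurons (61.97), and the cold receptor gene Trpm8 (51.36, 4019 bp outside). Asic2, an acid-sensing channel gene, was the 1 of 29 mechanoreceptor and proprioceptor genes (73.75). Ntrk2, the receptor gene for BDNF, was the 1 of 21 neurotrophic genes (65.68, chr13:58807522-58808046), with the member 0.401% of the way into the gene.

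No member was found in or near the TALE homeobox genes (0 of 11), the Hox genes (0 of 39), the glial and Schwann cell markers (0 of 24), the marker list for endothelium, blood, muscle, fibroblasts and immune cells (0 of 30) or the ribosomal and translation genes (0 of 40). With 2.63% of all protein-coding genes having a member in that range, lists of this size can hold none without standing apart. The genes of the antibody's own targets were among them. The nearest member lay 243 kb from Meis3 (score 65.25), 4429 kb from Meis1 (61.70) and 4851 kb from Meis2 (71.59). Median gene lengths were 43.0 kb for the TALE list, 24.8 kb for the list of other cell types, 13.9 kb for the glial, 3.74 kb for the Hox and 3.51 kb for the ribosomal list, beside 17.2 kb for all protein-coding genes.

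Members were sparse on the X chromosome. The 19 autosomes held 882 members, or 0.367 per Mb from the first to the last gene, and ranged from 0.231 on chromosome 12 to 0.565 on chromosome 10. Chromosome X held 14, or 0.0835 per Mb (exact Poisson 95% interval 0.0457 to 0.140), and chromosome Y none, with an upper limit of 0.0407 per Mb. Chromosomes 10 (interval 0.442 to 0.711) and 15 (0.394 to 0.687) lay above the mean over the autosomes and X, 0.349 per Mb. Chromosome 12 (0.152 to 0.336) lay below it. They were picked by these intervals, which were not adjusted for the number of chromosomes. Members were 72 of all 92 peaks on chromosome 10, 53 of 67 on 15 and 27 of 40 on 12. Over the whole list they were 896 of 1278 (70.1%). Densities of all peaks were not worked out, so nothing particular to members is claimed for these chromosomes. Few of the other peaks lay on X either, 8 of 382. The sources used here name no sex of the embryos.

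**Figure D4:**
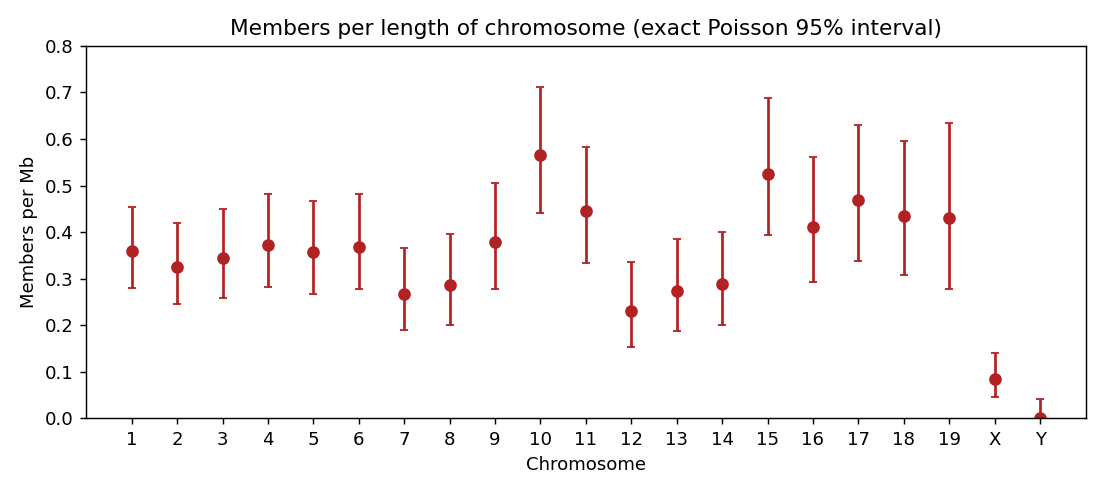
Members per Mb from the first to the last annotated gene (y axis) on each chromosome (x axis), with exact Poisson 95% intervals. Chromosome X at 0.0835 lies below every autosome, and chromosomes 10 and 15 are the densest.

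Few members were listed again in the adult. Of 896, 10 overlapped an adult peak of either caller by at least 1 bp (1.12%, exact 95% interval 0.536 to 2.04), against 4.77% of all E16 MACS 1.4 peaks and 51 of the 382 peaks with a MACS2 overlap (13.4%, 10.1 to 17.2). All 10 were in the adult MACS 1.4 list and 3 were also in the adult MACS2 list (0.335%), where all E16 MACS 1.4 peaks gave 3.36%. The adult lists were not used to choose the members. The middles of the E16 and adult peaks were a median of 77 bp apart.

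The member 69.2 kb from Itga11, an integrin gene (chr9:62608474-62608927), was low in its E16 list, with a score of 59.96 at place 1180 of 1278. The adult peak there was high in its own list, with a score of 881.29 at place 11 of 771. Its adult MACS2 fold over the local background was 36.4. The adult fold was 8.27 at the member 1486 kb from Cdh11, a cadherin gene (E16 score 85.92, adult score 145.92), and 5.55 at the one 940 kb from Efna5, an ephrin gene (58.38 and 91.18). These 3 were the ones that MACS2 also listed in the adult. Scores rank peaks within their own list only, so values of the ages stand side by side without a comparison.

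The other 7 shared members were absent from the adult MACS2 list. The one inside Rbx1 had 138.97 at E16 and 102.95 in the adult, with middles 4 bp apart. The scores at E16 and in the adult were 70.02 and 94.61 inside Jarid2, a partner of Polycomb repressive complexes, and 70.70 and 84.15 at the member 53.2 kb from Frmd4a, a scaffold of cell polarity. They were 81.75 and 57.26 inside Aida and 61.36 and 54.39 inside Slco2a1. The member 263 kb from Stmn2, a neuronal microtubule regulator, had 86.01 and 50.46. Of the 10, 8 were among the 246 members without a tag number (3.25%, exact 95% interval 1.41 to 6.31), and 2 among the 650 at the genome-wide background (0.308%, 0.0373 to 1.11). The part of a raised local background in this was not tested.

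**Figure D5:**
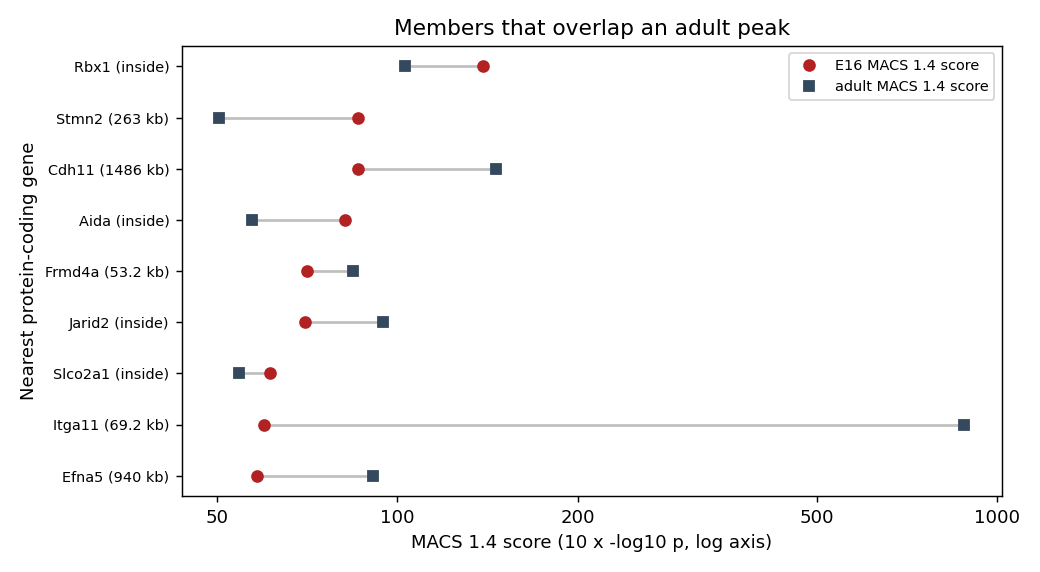
MACS 1.4 scores (x axis, log scale) at E16 (red circles) and in the adult (dark squares) of 9 of the 10 members that overlap an adult peak, named by the nearest protein-coding gene and its distance. The pair near Itga11 has 59.96 and 881.29. Scores rank peaks within their own list only, so the distance between circle and square is not a comparison of the ages.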

How the data were processed

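The 4 libraries (E16 and adult, immunoprecipitated and input) were each the only one of their group. Reads were handled with bcl2fastq 2.17 and FastQC, placed on mm10, and peaks were called with MACS 1.4.2 and MACS2 2.1.1, per the submitters' processing notes. The sources used here name neither the aligner nor the treatment of duplicate and multiply placed reads nor the settings of the callers, all of which can change which weak peaks are listed. In the MACS 1.4 lists, as deposited, each peak has a position and a score, 10 times the −log10 of its p-value. In the MACS2 lists, as deposited, each peak has a score, a fold over the local background (a ratio), −log10 p and −log10 q values and a summit.

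The middle of a MACS 1.4 peak was its position. Tag numbers were sought by taking the score as the Poisson probability of more tags than counted, with an expected number proportional to peak width and never below that of a 360 bp window (0.475 tags). The most frequent score, 73.75 (46 peaks), was taken as 7 tags. Scores within 0.02 of a whole number's score got that number (916 of 1278 peaks). The search was tested on simulated peaks drawn from the same model, rate and window, with the most frequent score again taken as 7 tags. That test could not check these choices themselves. The read depth of the libraries is unknown, since the files hold no totals.

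Genes (49591, of which 21770 protein-coding) and promoter windows (32851, none on chromosome 18) came from RefSeq tables of GRCm38.p6, whose chromosome coordinates are those of mm10. Rows on unplaced scaffolds were dropped. Strand was known for 17491 protein-coding genes. Whether a peak lay in an exon or an intron was not analysed here. Shares have exact (Clopper-Pearson) 95% intervals.

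Named genes were the nearest of the 12 highest members, the 10 highest inside genes, up to 20 at boundaries, up to 10 with several members, up to 4 of each list, those of members shared with the adult, and Meis1, Meis2 and Meis3. Other genes, among them list genes beyond the fourth, were named after their values were seen. The members and lists were chosen with earlier results of these data known. All list genes were found, 2 by an older symbol. A list gene and a member shared with the adult are counted but not reported here by name. Alternatives were score minimums of 60 and 70, other overlap and distance limits, protein-coding genes only, members without neighbours and, added after seeing the data, members at the genome-wide background only. Python 3.11.15, pandas 2.3.3 and scipy 1.17.1 were used.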

Additional observations from a re-analysis of the deposited data

How the results depend on the processing

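No paired analysis was possible because each group held 1 library, and for the same reason no library could be left out. The number of members was 896 with an overlap of at least 0.5 of the shorter peak as the limit and 895 with no MACS2 peak within 500 bp. The share inside genes stayed within its interval for score minimums of 60 and 70, for members without neighbours, for members at the genome-wide background (an alternative chosen after seeing the data) and for any base inside a gene, and was 45.9% for protein-coding genes. The share within 1000 bp of a boundary stayed within its interval for the same 4 choices of members and was 5.36% for protein-coding genes, 4.80% for a limit of 500 bp and 16.2% for 2000 bp. Far from genes the share was 13.5% with a limit of 50000 bp. The share listed in the adult was 0.335% with the adult MACS2 list alone and 0.308% for members at the genome-wide background, while it was 1.23% with a gap of up to 500 bp. Genes of the lists with a member numbered 29 at a score of at least 60 and 30 for gene bodies alone. A wider limit or another gene set changes these shares by its own construction. Few tags per peak limit what a single member shows, and 1 library per age limits every comparison.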

Other observations

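In the other direction, 18 of the 419 E16 MACS2 peaks overlapped no MACS 1.4 peak, with a median fold of 5.69. The highest fold among them, 9.77, lay inside Sfi1 (chromosome 11, 3193019 to 3193579), and another with a fold of 4.78 lay in the same gene, which also held 3 of the widest MACS 1.4 members. Others lay inside Esr1, the oestrogen receptor alpha gene, Rims2, a paralogue of Rims1, and Kifap3, a kinesin-associated protein gene, each with a fold of 5.69. These genes were chosen after their values were seen.

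Of the 896 members, 21 had a neighbour within 10000 bp, and besides the row at Sfi1 these included a pair on chromosome 10, inside LOC100504180 (score 90.66) and inside Duxf3, a Dux family gene (53.44). No member overlapped any of the 1005 miRNA hairpins of the RefSeq table.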
